A study of Caenorhabditis elegans with 2 samples.

Results

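The 261 microRNA genes of Caenorhabditis elegans were examined for regions bound by the GFP-tagged protein F13H6.1, the product of bcl-11. They are all the genes that the Ensembl annotation of the genome assembly WBcel235 types as microRNA, 261 of 46926 annotated genes. A gene was counted as having a site when the summit of a region in the authors' thresholded list lay between 1000 bp upstream and 500 bp downstream of its annotated start. It was counted as having a relaxed region when a summit of the authors' longer pooled list lay in the same window. The authors label that list as peaks and background, so a relaxed region alone is not a call of binding. A site fell at 20 microRNA genes (7.66%), against 3.16% of all genes, and a relaxed region at 120 (46.0%), against 28.6% of all genes.

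F13H6.1 is a zinc finger protein related to the mammalian transcription factors BCL11A and BCL11B. Chromatin immunoprecipitation with sequencing was done with an antibody to GFP on whole hermaphrodite late embryos of strain OP471, genotype unc-119(tm4063) III; wgIs471, collected 5 hours after synchronization by bleaching. The strain carries a transgene for the tagged protein, so the values describe the transgenic fusion. The samples form 1 group with 2 biological replicates, and a gene's values were therefore compared with those of other genes and between replicates.

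A microRNA is cut by Drosha and then Dicer from a hairpin within a longer primary transcript, is loaded into an Argonaute protein, and pairs through its seed near the 5′ end with messenger RNAs, which are then translated less or degraded. MicroRNAs with the same seed are grouped as a family because they can pair with the same targets. In the worm embryo and larva, microRNA families are known for timing of development (lin-4 and let-7), for embryonic viability (the mir-35 and mir-51 families) and for neuronal asymmetry (lsy-6). Many microRNA genes lie in introns of coding genes, and others in tandem clusters that can share 1 primary transcript.

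The seed family with the most sites was that of mir-51 to mir-56, in which 5 of 6 genes had a site. Members of this family act redundantly and are needed for embryonic development. Their mature sequences are shown because this family holds the strongest regions at any microRNA gene. Bases 2 to 8, the seed, are in capitals, and the sequences were read 5′ to 3′ from WBcel235 at the positions of the RefSeq annotation.
mir-51-5p: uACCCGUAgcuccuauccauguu
mir-52-5p: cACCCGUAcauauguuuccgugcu
mir-53-5p: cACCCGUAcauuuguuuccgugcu
mir-54-3p: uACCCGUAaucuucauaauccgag
mir-55-3p: uACCCGUAuaaguuucugcugag
mir-56-3p: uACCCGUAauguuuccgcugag
The 6 sequences share the seed ACCCGUA, although it lies in the 5′ arm of the hairpin in mir-51, mir-52 and mir-53 and in the 3′ arm in mir-54, mir-55 and mir-56. They come from 3 places in the genome, namely the mir-51 and mir-53 pair and the single gene mir-52 on chromosome IV and the mir-54, mir-55 and mir-56 cluster on chromosome X.

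The second family, with 4 of 5 genes at a site, was made up of mir-229, mir-64, mir-65 and mir-66, which lie in a row on chromosome III, and mir-63 on chromosome X. Mature sequences of mir-229, mir-64, mir-66 and mir-63 are shown with the same marking. The family is shown because 1 site accounts for all 4 called genes, mir-229, mir-64, mir-65 and mir-66.
mir-229-5p: aAUGACACugguuaucuuuuccaucg
mir-64-5p: uAUGACACugaagcguuaccgaa
mir-66-5p: cAUGACACugauuagggauguga
mir-63-3p: uAUGACACugaagcgaguuggaaa
The shared seed is AUGACAC. mir-63 had a relaxed region only, with its summit 311 bp downstream of the start, at rank 19449 of 21824.

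Among the genes mir-58.1, mir-80, mir-81 and mir-82, related to bantam of Drosophila, mir-58.1 and mir-80 had a site, mir-81 had a relaxed region and mir-82 had neither. Of the lin-4 pair, lin-4 had a site and mir-237 did not. These sequences are shown because closely related microRNAs differed in whether their genes had a site.
mir-58.1-3p: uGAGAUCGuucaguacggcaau
mir-80-3p: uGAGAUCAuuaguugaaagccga
mir-81-3p: uGAGAUCAucgugaaagcuagu
mir-82-3p: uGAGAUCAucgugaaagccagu
lin-4-5p: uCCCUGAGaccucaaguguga
mir-237-5p: uCCCUGAGaauucucgaacagcu
mir-80, mir-81 and mir-82 share the seed GAGAUCA, and mir-58.1 has GAGAUCG. Of the 6 genes with GAGAUCA, 1 had a site and 2 a relaxed region or site, and mir-58.2, mir-2209.1 and Y73B6A.17 had neither. lin-4 and mir-237 share CCCUGAG.

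A site was found at 7.66% of the microRNA genes (20 of 261, 95% Wilson interval 5.02 to 11.5%), against 3.16% of all annotated genes, 3.59% of protein-coding genes and 5.82% of the 7764 genes typed ncRNA. A relaxed region was found at 46.0% of the microRNA genes (120 of 261, 40.0 to 52.0%), against 28.6% of all genes, 33.4% of protein-coding genes and 47.2% of ncRNA genes. The share with a site was thus above that of all genes and of protein-coding genes by more than the counting interval, while the ncRNA share lay inside the interval for both measures. Without the piRNA genes, of which 0.319% had a site, the share of all genes was 4.55%, below the interval for microRNA genes. Taking all noncoding genes other than microRNA and piRNA genes together, 7.48% had a site. tRNA genes, at 23.5%, and snoRNA genes, at 20.2%, had sites more often than microRNA genes by intervals that did not overlap (20.4 to 27.0% for tRNA and 16.3 to 24.8% for snoRNA genes). These intervals cover counting error only, and neighbouring genes share regions, so no test between gene classes was made.

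Counting each cluster once, where a cluster is a chain of microRNA genes on 1 strand at most 2 kb apart, gave 222 loci, of which 15 had a site (6.76%, 4.14 to 10.8%), an interval that holds the 4.55% of all genes other than piRNA genes. There were 200 single genes and 22 clusters with 61 genes. A site fell at 4 of the 22 clusters (18.2%, 7.31 to 38.5%) and at 11 of the 200 single genes (5.5%, 3.10 to 9.58%), and these intervals overlapped. The clusters with a site were mir-229 with mir-64, mir-65 and mir-66, mir-54 with mir-55 and mir-56, mir-51 with mir-53, and mir-80 with mir-238. All genes were in a window of a site in the first pair of clusters, whereas mir-53 had a relaxed region only and mir-238 had none. The clusters with the most genes had no site. Of the 7 genes from mir-35 to mir-41, 5 had a relaxed region, and in the X chromosome clusters of 6 genes (mir-4807 to mir-4810.1) and 5 genes (mir-1018 to mir-4921) none had one.

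Position relative to coding genes divided the microRNA genes further. Of 97 genes inside an intron of a protein-coding gene, 14 had a site (14.4%, 8.80 to 22.8%), against 5 of 152 intergenic genes (3.29%, 1.41 to 7.47%). In introns on the same strand the count was 11 of 67 (16.4%), and in introns on the opposite strand it was 3 of 30, all of them mir-54, mir-55 and mir-56 in F09A5.3. Relaxed regions were found at 55 of the 97 intronic genes (56.7%) and 60 of the 152 intergenic ones (39.5%). Counted by loci, the shares with a site were 9 of 83 intronic loci (10.8%, 5.81 to 19.3%) and 5 of 127 intergenic loci (3.94%, 1.69 to 8.89%), and the intervals overlapped. Among ncRNA genes the order was the other way, with 4.79% of intronic and 7.07% of intergenic genes at a site. The difference between intronic and intergenic microRNA genes was not tested. The remaining 12 microRNA genes overlap an exon of a coding gene, and 1 of them, mir-354, had a site.

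**Figure D1:**
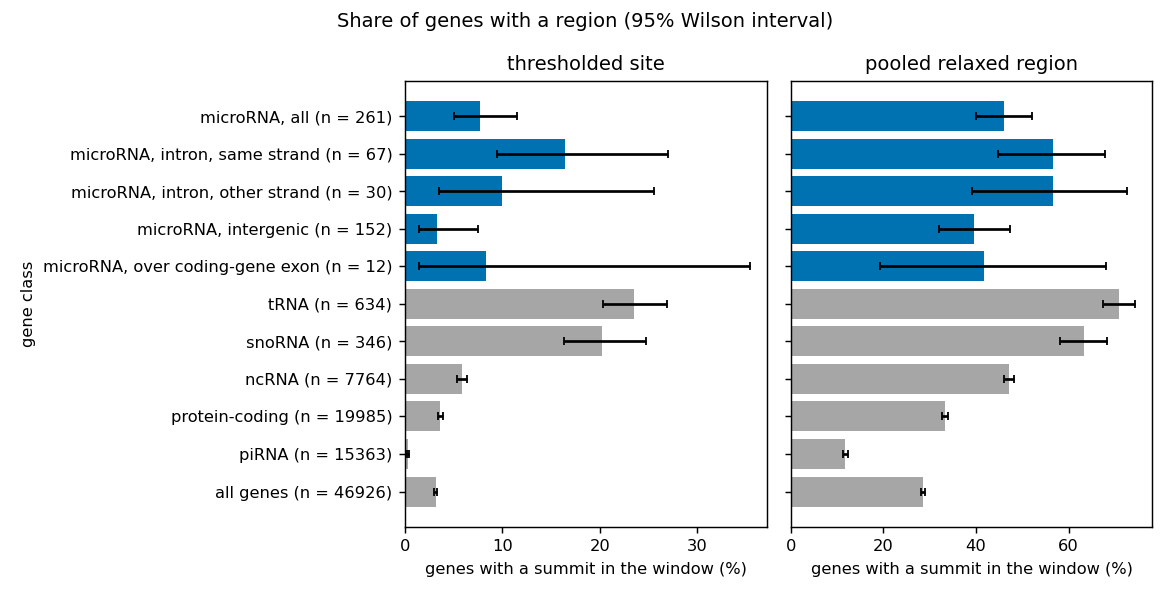
Share of genes, in percent, with a thresholded site (left) or a pooled relaxed region (right) in the window, for microRNA genes and their positional classes (blue) and other gene classes (grey). Bars start at 0 and error bars are 95% Wilson intervals. For sites, same-strand intronic microRNA genes stand at 16.4% and intergenic ones at 3.29%, and tRNA genes have the highest share at 23.5%.

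The 20 genes were reached by 16 entries of the thresholded list, in 15 intervals. The signal that the authors' peak caller gave each region is on a scale not stated in the sources used here, so it is used only to rank regions within a list, where rank 1 is the strongest. The 16 entries had a median rank of 662 and a median signal of 102, against 533 and 112 for all 1065 sites. The bases around their summits had a median GC content of 54.95%, against 50.5% at all sites and 42.6% at relaxed regions below the threshold. At 9 of the 16 the summit lay in an intron, at 7 between coding genes and at none in an exon of a coding gene. The window of some gene of another type also held 11 of the 16 summits, and a summit in several windows cannot be given to 1 gene. Mostly this was the window of an ncRNA gene, at mir-51, mir-52, mir-54, mir-58.1, mir-80, mir-2, mir-87 and lin-4.

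The strongest region at a microRNA gene was at mir-52, an intergenic gene with 10059 bp between the summit and the nearest annotated start of a coding transcript. Its signal was 299 in the pooled list (rank 37), 114 in replicate 1 (rank 86) and 189 in replicate 2 (rank 22). The interval, chrIV:14033082-14034130, is 1049 bp long and is listed with a second summit of signal 103 (rank 647). The summits lie 287 and 88 bp upstream of the annotated start of mir-52, and windows of 7 and 6 ncRNA genes hold them as well. mir-51 followed at rank 188 (signal 169), with rank 291 in replicate 1 and rank 132 in replicate 2. Its summit lay 106 bp upstream of the start. The neighbouring mir-53 had a region 104 bp upstream of its own start, at nearly the same distance, which missed the threshold at rank 1142 (signal 79.5, with ranks 1188 and 1789 in replicates 1 and 2).

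The mir-54, mir-55 and mir-56 cluster had a site 323 bp upstream of mir-54, its first gene in the direction of transcription, at rank 239 (signal 156, with ranks 183 and 269 in replicates 1 and 2). The same summit was 493 bp from the start of mir-55 and 630 bp from that of mir-56. A weaker site lay at the other end of the cluster, 346 bp downstream of the start of mir-56, at rank 904 (signal 88.9), and was among the 1065 strongest regions of replicate 2 (rank 837) but not of replicate 1 (rank 1194). It was also the site assigned to F09A5.15, a microRNA gene annotated on the other strand over mir-55, 389 bp upstream of that gene's start. The family thus had regions at all 3 of its locations, and the summit nearest the start of mir-52, mir-53 and mir-54, the first gene at each, lay upstream of it.

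The bases within 50 bp of these summits are shown because these are the strongest regions at microRNA genes, each on the + strand of WBcel235. They cover chrIV:14033671-14033771 and chrIV:14033870-14033970 for the summits at mir-52, chrIV:11026168-11026268 for mir-51 and chrX:13145367-13145467 for mir-54. Capitals mark GAGAG or its reverse complement CTCTC, overlapping matches included, a word chosen for display after the windows had been read.
mir-52 upper summit: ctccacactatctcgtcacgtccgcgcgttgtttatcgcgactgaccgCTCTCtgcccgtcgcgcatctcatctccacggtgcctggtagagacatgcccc
mir-52 lower summit: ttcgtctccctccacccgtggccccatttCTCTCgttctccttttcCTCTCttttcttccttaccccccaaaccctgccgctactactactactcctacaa
mir-51: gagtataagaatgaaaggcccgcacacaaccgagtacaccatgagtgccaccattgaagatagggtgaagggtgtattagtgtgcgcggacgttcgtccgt
mir-54: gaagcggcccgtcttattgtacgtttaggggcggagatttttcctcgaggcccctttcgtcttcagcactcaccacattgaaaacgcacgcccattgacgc
The word was in both windows of mir-52 and in neither of the others. It was present at 7 of the 16 entries at microRNA genes (43.8%), against 45.7% of all 1065 sites. Among regions below the threshold it was present in 30.8% of the 117 at microRNA genes and in 22.5% of all 20759. Median GC content was 50.5% at all sites and 42.6% at all regions below the threshold. The shares with the word were not adjusted for base composition. A match is a description of the letters and not of a binding site.

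The mir-229, mir-64, mir-65 and mir-66 cluster lies in an intron of gcn-1, on its strand. Its 1 site, with the summit 20221 bp from the start of gcn-1, had a signal of 103 (rank 650) in the pooled list, 65.6 in replicate 1 (rank 356) and 53.9 in replicate 2 (rank 680). The summit lay 286 bp upstream of mir-229, the first gene, and 682, 836 and 942 bp upstream of mir-64, mir-65 and mir-66. No gene of another type had this summit in its window. In replicate 2 the summit was 92 bp away from the pooled one, which put mir-66 outside the window there.

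lin-4, the regulator of lin-14 and lin-28 that times the first larval stages, had a site in an intron of F59G1.4, 360 bp upstream of the lin-4 start. The signal was 85.9 (rank 968) in the pooled list and 40.5 in each replicate, at rank 1127 in replicate 1 and rank 1304 in replicate 2. It was the only 1 of the 16 entries outside the 1065 strongest regions of both replicates, and 3 ncRNA genes had the summit in their windows. GC content was highest here among the 16, at 70.3%. The windows of lin-4 (chrII:5901844-5901944), mir-229 (chrIII:2172116-2172216) and mir-80 (chrIII:8865555-8865655) are shown, with the same marking, as the range from no match to several.
lin-4: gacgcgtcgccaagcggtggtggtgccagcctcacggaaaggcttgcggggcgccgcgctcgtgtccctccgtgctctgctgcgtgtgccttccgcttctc
mir-229: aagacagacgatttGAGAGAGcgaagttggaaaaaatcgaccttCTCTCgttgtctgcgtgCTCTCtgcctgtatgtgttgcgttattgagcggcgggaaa
mir-80: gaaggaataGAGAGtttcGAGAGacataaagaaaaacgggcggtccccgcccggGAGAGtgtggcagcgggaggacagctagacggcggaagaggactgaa
The word occurred 4 times at mir-229, 3 times at mir-80 and not at lin-4.

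mir-80 and mir-58.1, of a family known to repress genes of the TGF-beta pathway and the cell-death gene egl-1, had sites of similar rank. At mir-58.1, in an intron of phkb-1, the signal was 109 (rank 568), with ranks 675 and 542 in replicates 1 and 2, and the summit was 241 bp upstream. At mir-80, intergenic, it was 104 (rank 630), with ranks 1204 and 411, and the summit was 238 bp upstream. The site of mir-80 was thus among the 1065 strongest in replicate 2 only, while that of mir-58.1 was among them in both. mir-81 had a weak relaxed region (rank 13893), and the nearest site to mir-82 was 2690 bp away.

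Of the other intronic genes with a site, mir-2, mir-87, mir-4929 and mir-8192 lay in introns on their own strand. Each of them except mir-8192 had its summit upstream. At mir-2, in ppfr-1, the summit was 202 bp upstream with signal 101 (rank 674, and 722 and 707 in replicates 1 and 2). At mir-87, in kup-1, it was 178 bp upstream with signal 98.8 (rank 716, and 776 and 647). Both were thus about equally ranked in the 2 replicates. mir-4929, in an intron of E01G4.3, had its summit 290 bp upstream and 109 bp from the nearest annotated transcript start of that gene, an internal start and not the gene start that sets its window, with signal 83.6 (rank 1029). Of the 16 entries, this was the one whose ranks in the replicates differed most, with rank 6401 in replicate 1 and rank 556 in replicate 2. mir-8192, in flcn-1, was the only gene with a summit within its own body, 70 bp from its start and 14 bp inside the annotated hairpin. The signal was 89.9 (rank 881, and 841 and 1391). The same summit was 350 bp from the nearest annotated transcript start of flcn-1.

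At mir-354 and mir-5549 the summit also lay in windows set on the starts of coding genes. For mir-354, 843 bp upstream with signal 117 (rank 482, and 929 and 340 in replicates 1 and 2), the summit was 166 bp from the start of ekl-4 and in the window of rps-20, which encodes a ribosomal protein. For mir-5549, 3 bp upstream with signal 100 (rank 688, and 685 and 1052), it was 165 bp from the start of rfc-4, a clamp loader subunit, and in the window of eef-1A.1, a translation elongation factor. mir-47 completed the list with an intergenic summit 697 bp upstream and signal 86.6 (rank 957, and 870 and 835). mir-46, which shares both of its seeds with mir-47, had a relaxed region of rank 13305.

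**Figure D2:**
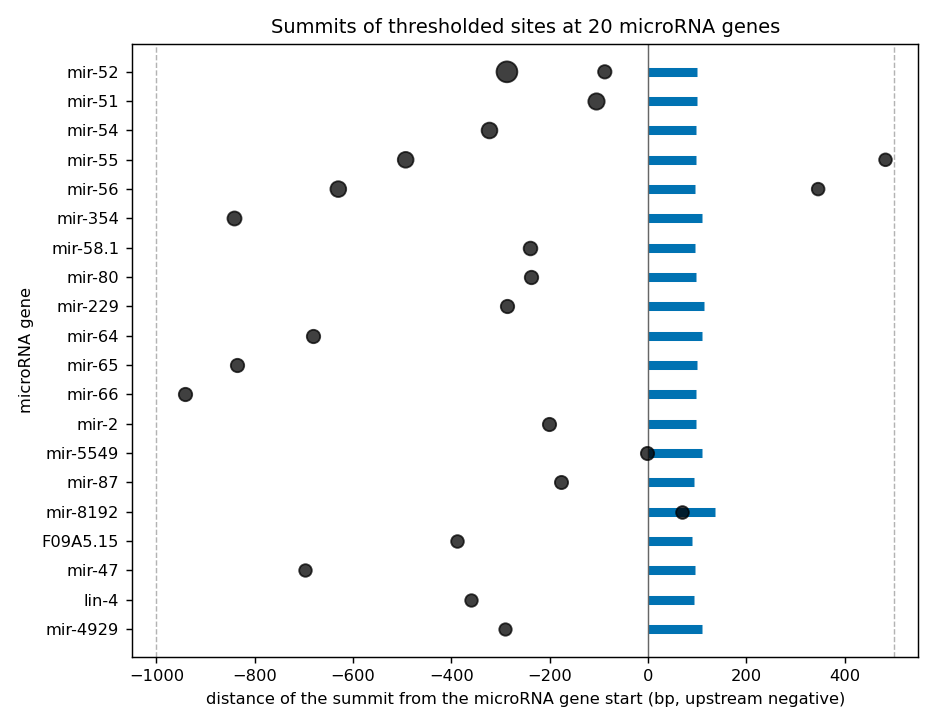
Position of every site summit in the window of the 20 microRNA genes, in bp from the annotated gene start with upstream negative. Blue bars are the annotated genes drawn to scale from their starts, dashed lines bound the window, and point area grows with the pooled signal. At 17 genes every summit is upstream, mir-55 and mir-56 have 1 summit on either side, and mir-8192 has its summit within the gene.

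The nearest site summit was upstream of the start at 17 of the 20 microRNA genes (85%), at a median of 263.5 bp upstream and between 942 bp upstream and 483 bp downstream. Protein-coding genes with a site had it upstream in 93.7% of cases, at a median of 257.5 bp upstream. At ncRNA genes it was upstream in 36.5%, with the median 62 bp downstream, and at tRNA genes in 36.2%, with the median 10 bp downstream. At snoRNA genes it was upstream in 88.6%, with the median 55 bp upstream. Genes of a cluster are counted separately here, although all genes of the mir-229 cluster share 1 summit. The window itself is 66.6% upstream. For relaxed regions, 90 of 120 microRNA genes (75%) had the nearest summit upstream, at a median of 179.5 bp. In bins of 250 bp, the 500 bp before the start held the most microRNA genes, with 7 genes at a site (2.68%) and 43 at a relaxed region (16.5%) in each of its bins. The first bin after the start held 1 gene with a site (0.383%). ncRNA genes had their highest share in that first bin after the start (3.17% for sites), and protein-coding genes had theirs in the bin just before it (1.51%). Because a microRNA gene is mostly annotated as its hairpin, these distances are not distances from the start of the primary transcript.

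**Figure D3:**
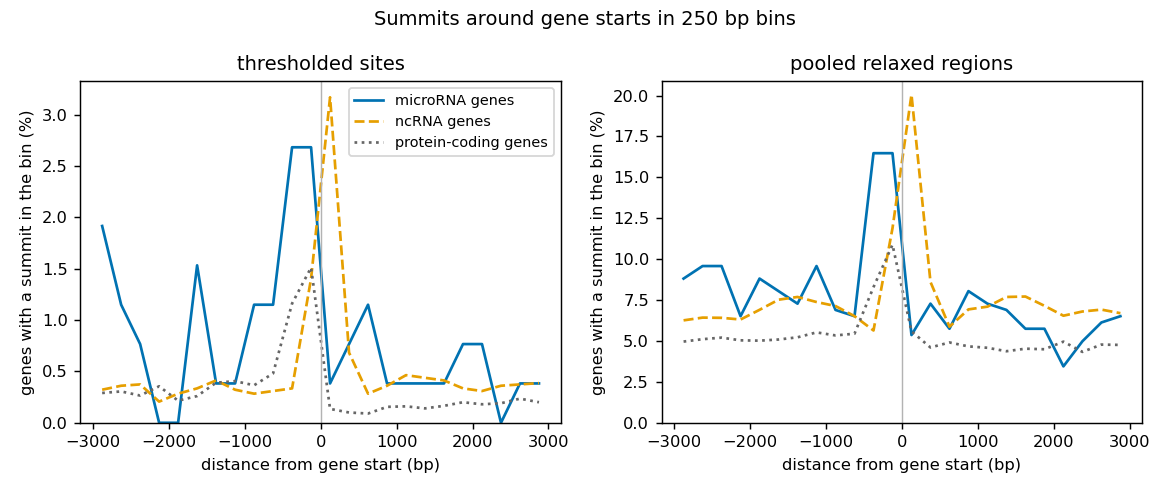
Share of genes, in percent, with a summit of a thresholded site (left) or a pooled relaxed region (right) in bins of 250 bp around the annotated gene start, for microRNA, ncRNA and protein-coding genes. The microRNA line is highest in the 500 bp before the start, at 2.68% for sites and 16.5% for relaxed regions, and the ncRNA line just after the start. At 261 genes the microRNA line is stepped for sites, where 1 gene is 0.383%.

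The share of entries among the strongest regions of both replicates was near that of all sites, though imprecise at 16 entries. Of the 16 entries, 11 (68.8%) overlapped a region among the 1065 strongest of each replicate, against 741 of all 1065 sites (69.6%). Because the threshold was set from both replicates, this restates that selection in part. Both entries at mir-52 lie in 1 interval and have the same strongest overlapping region in each replicate, so that locus counts more than once. Taking the 1065 strongest regions of 1 replicate in place of the sites gave 19 microRNA genes in replicate 1 (7.28%) and 21 in replicate 2 (8.05%), against 3.13% and 3.04% of all genes. In both replicates and the thresholded list, 14 genes were the same. Of the other site genes, mir-66 and mir-8192 were reached in replicate 1 only, F09A5.15, mir-4929 and mir-80 in replicate 2 only, and lin-4 in neither. Without a site, mir-1, mir-124 and mir-8209 were reached in replicate 1 and mir-42, mir-43, mir-44 and mir-62 in replicate 2.

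The threshold fell in the middle of a continuous range, with a signal of 82.13 for the last site and 82.12 for the first region below it. The 10 microRNA genes of highest signal without a site ranked between 1084 and 1589. mir-1, a muscle microRNA, came first at rank 1084 (signal 81.4, with ranks 748 and 1335 in replicates 1 and 2). mir-53 followed, and then mir-271 at rank 1182 (signal 78.1) and mir-124, known from sensory neurons, at rank 1232 (signal 76.4). The list continued with mir-90 at rank 1269 and mir-8190 at rank 1378. mir-8186.1 and mir-8186.2, annotated over each other on opposite strands, shared a region of rank 1423. mir-43 and mir-44 shared with mir-42 a region of rank 1589, which ranked 1026 in replicate 2 and 4766 in replicate 1.

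**Figure D4:**
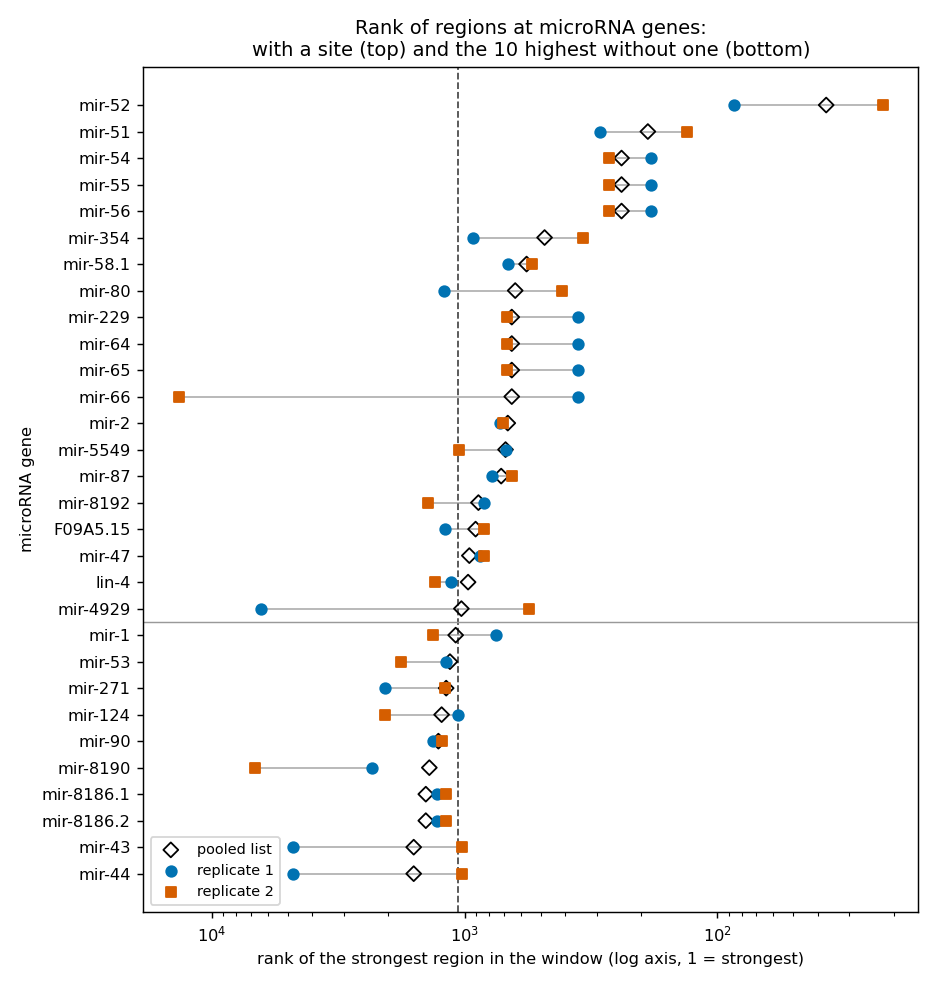
Rank of the strongest region in the window of each microRNA gene, on a log axis with rank 1 to the right, in the pooled list and in replicates 1 and 2. The 20 genes with a site are above the line and the 10 next below it, and the dashed line marks rank 1065, where the thresholded list ends. mir-52 is the strongest in all 3 lists, and the replicates are farthest apart at mir-66 and mir-4929 among the genes with a site.

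Several of the best known families had no site. let-7 and its relatives mir-48, mir-84 and mir-241, which promote the later larval transitions, were 8347 to 34026 bp from the nearest site. mir-241 had a relaxed region at rank 1660 and mir-84 one at rank 18614. At let-7, whose annotated gene extends over a long primary transcript, no summit lay in the window of the gene start. Measured from its hairpin, a region of rank 5577 had its summit 318 bp upstream, with ranks 9669 and 4893 in replicates 1 and 2. The mir-35 family, needed in the embryo, had 6 of 8 genes with a relaxed region and none with a site. mir-35 to mir-39 shared a region whose summit was 475 bp upstream of mir-35, at rank 2035 (signal 61.3, with ranks 1765 and 3833). lsy-6 and mir-34 had neither a site nor a relaxed region, and the nearest site was 69873 bp from lsy-6 and 27208 bp from mir-34. mir-71, a lifespan microRNA in the same host gene as mir-2, had a relaxed region of rank 6119 and a site 1363 bp upstream, outside the window. For the 241 genes without a site, the nearest one was at a median of 29118 bp.

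Across all microRNA genes, 260 had mature sequences in the RefSeq annotation, with 458 mature sequences and 374 different seeds. Of these seeds 46 were shared by more than 1 gene, and 8 shared seeds had a gene with a site. Beside those described above, they were AUCACAG (mir-2 with mir-43, mir-250 and mir-797, of which 3 had a relaxed region or site) and UGAGCAA (mir-87, mir-233 and mir-356.1, all 3 with one). The seeds CACCGGG of the mir-35 family and GAGGUAG of let-7 with mir-48, mir-84, mir-241 and mir-795 had no gene with a site, and 6 and 2 of their genes had a relaxed region. Genes of a cluster share regions, so the counts by family are not counts of separate regions.

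**Figure D5:**
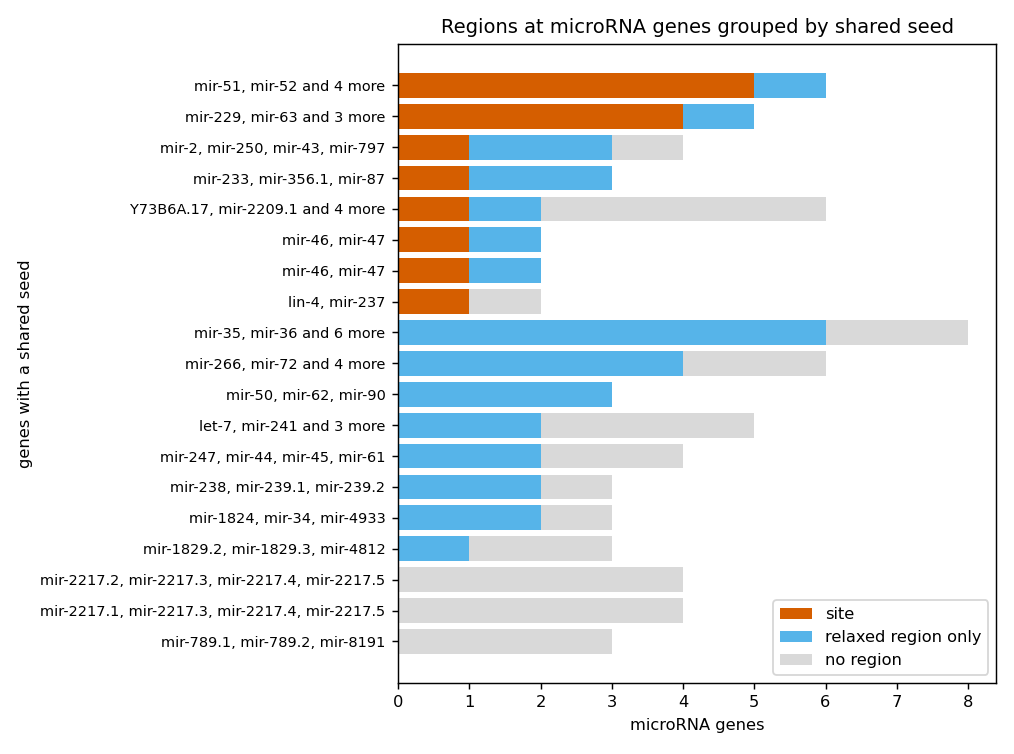
Number of microRNA genes with a site, with a relaxed region only and with neither, for each seed shared by 3 or more genes or with a site among its genes. mir-46 and mir-47 appear once for the seed of each arm. The mir-51 family has 5 of 6 genes with a site, and the mir-35 family 6 of 8 with a relaxed region only.

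The word TGACCA, bound by mammalian BCL11A, was searched on both strands within 50 bp of each summit. It was found at 0 of the 16 entries at microRNA genes, where 0 to 19.4% is the 95% interval, against 40 of all 1065 sites (3.76%). Among regions below the threshold it was found at 5 of 117 at microRNA genes (4.27%) and in 3.70% of all. At this number of entries a share like that of all sites could not be told from 0.

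Genes of the microRNA pathway and known microRNA targets had sites in part. Of 33 such genes, 4 had a site and 25 a relaxed region. The shares were 3.59% and 33.4% of protein-coding genes, and 3.16% and 28.6% of all genes. lin-28 is counted below both in biogenesis and among the targets. The lists by role are too short for a count of 0 to be told from these shares with a site. None of the 8 genes listed under biogenesis had a site. They were drsh-1, pash-1 and dcr-1, which encode Drosha, its partner and Dicer, with lin-28, pup-2, disl-2, xrn-2 and paxt-1. This label is broad and is not limited to genes that make microRNAs. Of the 3 Argonaute genes alg-1, alg-2 and alg-5, only alg-5 had a site (signal 138, rank 323). Of 11 effector genes, 3 had a site. They were ain-1, a GW182-type partner of the Argonautes (signal 283, rank 42), nhl-2, a TRIM-NHL cofactor (signal 200, rank 121), and vig-1, a component of the silencing complex (signal 156). None of the 12 genes on the target list had a site. A relaxed region was found at 11 of them, with lin-14 at rank 1250 and lin-28 at rank 1333. The target list does not hold every known target. Apart from lin-28, each gene was listed under 1 role, so nhl-2 was not counted among targets. alg-5, ain-1, nhl-2 and vig-1 were also among the genes reached by the 1065 strongest regions of each replicate. With upstream negative, their summits lay at -834 bp (alg-5), -922 bp (ain-1), -834 bp (nhl-2) and -416 bp (vig-1) from the gene start. Other window widths were not tried for the genes of these lists.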

How the data were processed

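Region lists in coordinates of ce11, the assembly WBcel235, were deposited by the authors as 1 thresholded list (1065 regions, per the file names the optimal list by irreproducible discovery rate), 1 pooled relaxed list (21824) and 1 relaxed list per replicate (19517 and 21972). Each region carries a signal value given by the authors, whose scale the sources used here leave unstated, as they do the peak caller. Read depth per library is unknown, and control libraries and coverage tracks were not analysed here. The thresholded list held the 1065 strongest regions of the pooled list. By its file name, the pooled list holds peaks and background and was the input to the thresholding. Genes and introns came from Ensembl release 115, and symbols and mature sequences from RefSeq. Gene windows, distances, clusters and 95% Wilson intervals (counting error only) were computed with Python 3.11.15, pandas 2.3.3 and scipy 1.17.1, and checked on simulated data. No test was made, since 1 group was sampled. The members and lists were chosen with earlier results of these data known. Genes were named when they had a site, were among the 10 strongest without one, or belonged to listed families. 1 listed effector gene was not matched, and 1 mature sequence is not reported here. Windows, cluster gaps, introns, and each replicate alone were tried as alternatives.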

Additional observations from a re-analysis of the deposited data

How the results depend on the processing

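Most counts moved by less than 1.5 times under the alternatives. Windows from 500 to 2000 bp upstream, other transcript starts, overlap in place of summits and either replicate alone gave 15 to 25 microRNA genes with a site and 100 to 145 with a relaxed region. With 500 bp upstream, mir-354, mir-47, mir-64, mir-65 and mir-66 were lost, and with 2000 bp mir-2215, mir-59, mir-71, mir-72 and mir-8190 were gained. Keeping the stronger 50% of the sites left 6 genes, mir-51, mir-52, mir-54, mir-55, mir-56 and mir-354, by construction fewer. With 1 kb between cluster genes 2 clusters had a site, because the mir-51 and mir-80 pairs then split. In 1 replicate alone the share of intergenic genes at a site was 3.95 to 5.26% and that of intronic genes 12.4%, and there were 3 to 5 clusters and 5 to 6 pathway genes with a site. From the centre of the gene the median distance was -316 bp. Counting protein-coding windows only left 2 entries shared with another type of gene, and 4 when windows were set on any coding transcript start, added after seeing the data, which brought in mir-8192 and mir-4929. Within 100 bp of the summit TGACCA was found at 2 of 16 entries and GAGAG, searched after seeing the data, at 11. No paired analysis was possible because there was only 1 group. Depth per library is unknown, so a missing region may be below detection.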

Other observations

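MicroRNA genes with low numbers, given to those named earlier, had sites more often than those with high numbers. This split was chosen after the values were seen. Of the 117 genes numbered from 1 to 392, with lin-4, let-7 and lsy-6, 16 had a site (13.7%, 95% Wilson interval 8.60 to 21.1%) and 69 a relaxed region (59.0%). Of the 140 genes numbered 784 or more, 3 had a site (2.14%, 0.731 to 6.11%), namely mir-5549, mir-8192 and mir-4929, and 50 a relaxed region (35.7%). For all annotated genes the shares were 3.16% with a site and 28.6% with a relaxed region. The 4 remaining genes have a sequence name only, and 1 of them, F09A5.15, had a site. Among the low-numbered genes, mir-229, mir-64, mir-65 and mir-66 share 1 site, and mir-54, mir-55 and mir-56 also share sites. The intervals above treat such genes as separate, and the split by number was not counted by locus. Abundance of the microRNAs was not measured here, and no test of the difference between low and high numbers was made.

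By chromosome, a site was found at 6 of 27 microRNA genes on chromosome III (22.2%), 4 of them in the mir-229 cluster, against 6.14% of all genes there other than piRNA genes. It was found at 5 of 74 on chromosome X (6.76%, against 5.38%), 3 of them in the mir-54 cluster and 1, F09A5.15, on the other strand over mir-55. It was found at 2 of 33 on chromosome I (6.06%, against 5.50%), 3 of 49 on chromosome II (6.12%, against 4.26%), 3 of 50 on chromosome IV (6%, against 3.95%) and 1 of 28 on chromosome V (3.57%, against 2.84%). These differences were not tested. Relaxed regions were found at 31.1% of the microRNA genes on chromosome X and 25% of those on chromosome V, 42% on chromosome IV, 65.3% on chromosome II, 63.0% on chromosome III and 60.6% on chromosome I. Over all annotated genes other than piRNA genes, which lie mostly on chromosome IV, the shares were 41.6% on chromosome X, 26.4% on chromosome V, 33.0% on chromosome IV, 37.5% on chromosome II, 45.1% on chromosome III and 44.6% on chromosome I.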
